A study of Mus musculus with 16 samples.

Results

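The PYHIN genes of the mouse Ifi200 cluster were followed in RNA-seq counts of bone marrow-derived macrophages (BMDMs). The 8 members Ifi203, Ifi204, Ifi205, Ifi207, Ifi209, Ifi211, Mndal and Aim2 were taken by name from a table of 55487 genes, all 8 were found, and all 8 were among the 12372 genes with enough counts to be tested. The study asked how JAK inhibition changes macrophages exposed to soluble factors of a mammary tumor. The BMDMs came from WT Balb/c mice aged 8 weeks, were cultured from bone marrow and were 16 samples in 6 groups, which all share strain, genotype and age. Cells in DMEM (2 samples) received no tumor medium, and cells in DMEM + Rux (3 samples) received no tumor medium but ruxolitinib, an inhibitor of the kinases JAK1 and JAK2, at a dose that the labels do not give for this medium. CM samples (3 samples) received medium conditioned by 4T1 cells, a Balb/c mammary tumor line. CM + Rux (3 samples, labelled 4 h) received this medium with 0.5 µM ruxolitinib, and CM + Rux + IKK-16 (3 samples) also received 0.8 µM IKK-16, an inhibitor of the IKK kinases that activate NF-κB. A further group, CM + Rux 2 h (2 samples), carries a label of 2 h whose meaning the sources do not state. The counts summed to between 18449388 and 46215853 per sample. Markers of macrophages were abundant in every group, with a summed level of 41200 to 58700 CPM (the count of a gene relative to the scaled total count of its sample), and Lyz2, with means of 31300 to 37000 CPM, was the highest of the 12 markers. The summed level of 9 epithelial and 4T1 markers was at most 1.56 CPM in any sample, and none of the 9 had enough counts to be tested. Their sum was 0 to 0.118 CPM in DMEM and 0.814 to 1.56 CPM in CM, without overlap. Cdh1 had the highest mean in CM, 0.618 CPM against 0.0148 CPM in DMEM, and Krt14 and Cldn3 were at 0 in every group. The source of these transcripts was not tested.

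PYHIN proteins carry a HIN domain that binds DNA and, in most members, a pyrin domain that binds other pyrin domains. AIM2 senses DNA in the cytosol and assembles an inflammasome with the adaptor ASC and caspase-1. The proteins of the Ifi200 genes lie mainly in the nucleus, and several are known as interferon-inducible regulators of transcription and growth. Interferons signal through JAK kinases to transcription factors, among them STAT2 and IRF9, that bind the interferon-stimulated response element (ISRE) or the gamma-activated site (GAS) in promoters.

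The members lie in a single stretch of chromosome 1, from position 173350879 (start of Aim2) to 174031810 (end of Ifi205) in GRCm38. Aim2 and Ifi209 are on the plus strand and the other 6 members are on the minus strand. Promoters from RefSeq (GRCm38.p6, 250 bases before to 50 after each start) were found for 7 of the 8 members. They were searched on both strands for GAAANNGAAA as an ISRE, TTCNNNGAA as a GAS and GGGANNTTCC as an NF-κB site, and no matches to different patterns overlapped in these promoters. The ISRE letters were present in 5 of the 7 members, against 3.44% of all 32841 promoters. A member was counted if any of its promoters held them, whereas the share counts single promoters. No member held the GAS letters, which 8.30% of all promoters held, and only Ifi209 held the NF-κB letters, which 1.47% of all promoters held. The 10 letters GAAATCGAAA were found in 16 promoters in all, and 7 of these 16 belonged to PYHIN genes. This string is itself the match seen in Ifi203, Ifi207 and Mndal, and some promoters of the cluster share long runs of bases, as given below. The share of PYHIN genes is thus a description and not an independent test. A match is a string of letters, and binding was not measured.

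The stretches below run 5′ to 3′ on the gene's own strand up to the base before the RefSeq start. They are shown so that members with the ISRE letters, in capitals, can be set beside Ifi209 and Aim2, which lack them in this window. In the main fit Ifi209 was called lower with ruxolitinib in CM and in DMEM, and Aim2 in neither medium. Of the members with the ISRE letters, Ifi203 and Ifi211 were called lower in both media, and Ifi207 and Mndal only in CM. Ifi205, which also held them, was called in neither medium. Calls under other settings are given below. The capitals in Ifi209 are the NF-κB letters. The Aim2 stretch ends at 173420603, inside the annotated gene, which starts at 173350879. Bases before that annotated start were not searched.
Ifi203 (chr1:173942493-173942592, minus strand): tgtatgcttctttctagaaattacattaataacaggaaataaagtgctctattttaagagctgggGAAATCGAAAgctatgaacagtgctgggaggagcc
Mndal (chr1:173880188-173880287, minus strand): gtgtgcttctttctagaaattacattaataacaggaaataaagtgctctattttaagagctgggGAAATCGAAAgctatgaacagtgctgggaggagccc
Ifi207 (chr1:173741810-173741909, minus strand): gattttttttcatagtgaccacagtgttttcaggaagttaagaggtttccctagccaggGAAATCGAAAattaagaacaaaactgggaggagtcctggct
Ifi211 (chr1:173913047-173913146, minus strand): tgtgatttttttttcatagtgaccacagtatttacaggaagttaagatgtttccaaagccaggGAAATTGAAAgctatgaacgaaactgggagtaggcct
Ifi205 (chr1:174031756-174031905, minus strand): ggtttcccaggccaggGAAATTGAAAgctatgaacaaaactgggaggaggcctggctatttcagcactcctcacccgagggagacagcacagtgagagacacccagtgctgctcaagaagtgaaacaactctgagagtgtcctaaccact
Ifi209 (chr1:173630759-173630858, plus strand): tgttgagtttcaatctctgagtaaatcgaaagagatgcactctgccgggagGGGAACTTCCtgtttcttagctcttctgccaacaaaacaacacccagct
Aim2 (chr1:173420454-173420603, plus strand): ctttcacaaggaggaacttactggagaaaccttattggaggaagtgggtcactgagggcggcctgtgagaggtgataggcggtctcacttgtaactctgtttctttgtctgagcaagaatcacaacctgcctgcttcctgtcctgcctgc

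The Ifi203 and Mndal stretches shared a run of 96 bases, and the longest run that either shared with Ifi207 was 12 bases. Counted from the start, the ISRE letters began at -35 in Ifi203 (the second of its RefSeq promoters), at -36 in Mndal, at -41 in Ifi207 and at -37 in Ifi211. Ifi205 held them at -134 and, as the reverse complement, at 23 bases after its start, outside the printed stretch. The second RefSeq promoter of Mndal held them as the reverse complement at -54. The Ifi209 promoter held the GAAATCGAAA of Mndal with a single difference, G1T, with positions counted from the first of these 10 letters, at -79 to -70 from its start.

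Read length bears on how well similar members are told apart. The 100-base runs counted here are shorter than the paired-end reads that the study states, so their shares can be higher than for whole fragments. Of the 100-base runs in the Ifi211 transcript, 56.9% occurred in another gene, mostly Ifi205, so the values of Ifi211 are uncertain where reads could not be assigned. This share was 16.9% for Ifi209, 15% for Ifi205, 10.7% for Ifi204, 6.38% for Mndal and 2.84% for Ifi203. It was 0.790% for Ifi207, and Aim2 shared none. The reads of Balb/c cells were mapped to the C57BL/6J reference, and the effect of strain differences in this cluster was not tested.

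Levels between genes were compared as CPM per kilobase of exon. In DMEM, Ifi207 was the highest member, with 59.7 ± 21.2 CPM per kilobase (mean ± SD, n = 2), and Ifi205 was the lowest, with 0.312 ± 0.112 (SD, n = 2). In CM the order was different. Mndal, related to the human myeloid nuclear differentiation antigen, led with 25.8 ± 1.70 CPM per kilobase (SD, n = 3), followed by Ifi207 with 20.8 ± 6.31 (SD, n = 3), a difference within their spread. Ifi209 was then the lowest, with 1.13 ± 0.688 CPM per kilobase (SD, n = 3).

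The comparison of CM with DMEM asked how tumor medium alone moved the genes. The members split. Ifi205 and Mndal rose, Ifi203, Ifi207 and Aim2 fell, and Ifi204, Ifi209 and Ifi211 did not pass the test. A call needed an adjusted p under 0.05 and a log2 fold change beyond 0.5, which 20.9% of all tested genes met upward and 24.1% met downward, so 2 members higher and 3 lower of 8 are near the background. Scaling by relative log expression (RLE) in place of total counts shifted every gene by 0.31 (log2) in this comparison. This is the difference between the mean log2 factors of the groups, and the changes are given relative to it. In these bulk samples, fewer cells of a type and less RNA per cell cannot be told apart.

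Ifi205, whose protein has been linked to control of the ASC gene, stood at 0.974 and 1.64 CPM in DMEM. It reached 7.67, 19.6 and 13.9 CPM in CM. Every CM sample was above both DMEM samples. The change was 10.8-fold (log2 3.43 ± 0.61 SE, adjusted p = 2.6e-04), from a low level of 33 and 40 counts in the DMEM samples. Mndal had 31.7 and 40.6 CPM in DMEM and 99.6, 88.1 and 90.2 CPM in CM. The CM samples were close to each other and all above DMEM, 2.56-fold (log2 1.36 ± 0.22 SE, adjusted p = 1.1e-04).

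Ifi203 ran the other way, from 77.9 and 135 CPM in DMEM to 27.6, 42.3 and 32.9 CPM in CM. It was 3.09-fold lower (log2 -1.63 ± 0.25 SE, adjusted p = 6.4e-05), with no overlap between the groups. Ifi207 had 153 and 256 CPM in DMEM and 50.9, 93.8 and 68.3 CPM in CM, and was 2.87-fold lower (log2 -1.52 ± 0.26 SE, adjusted p = 2.0e-04). The highest CM sample stayed below the lowest DMEM sample. For Aim2, the cytosolic DNA sensor, the DMEM samples had 31.1 and 33.4 CPM and the CM samples 18.6, 21.4 and 18.8 CPM. This was a small but even fall, 1.64-fold (log2 -0.72 ± 0.12 SE, adjusted p = 1.5e-04). Ifi204, a relative of human IFI16 that is linked to STING signalling, had 31.5 and 58.7 CPM in DMEM and 39.2, 68.5 and 40.0 CPM in CM (log2 0.14 ± 0.32 SE, adjusted p = 0.73). Ifi209 (log2 -0.87 ± 0.45 SE, adjusted p = 0.11) and Ifi211 (log2 -0.37 ± 0.30 SE, adjusted p = 0.30) also had overlapping groups. Without CM replicate 2, these latter genes were called lower as well, at log2 -1.52 and -0.77.

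Markers of other cells were summed in each sample. The 8 B cell markers summed to 80.1 and 144 CPM in DMEM and to 10.6, 14.2 and 10.9 CPM in CM. Nearly all of this was Ighm, at 111 CPM on average in DMEM, while Ms4a1 and Pax5 were at 0 in both DMEM samples. The sum was 88.0 to 141 CPM in DMEM + Rux and 12.2 to 15.6 CPM in CM + Rux. The 9 neutrophil markers, mainly Mmp8 and with Ly6g at 0, summed to 2.30 and 3.56 CPM in DMEM and to 9.32 to 10.2 CPM in CM. The 9 T and NK cell markers summed to at most 13.1 CPM in any sample, nearly all of it Cd4, and the 7 fibroblast markers to at most 33.9 CPM, mainly Pdgfrb. The 8 dendritic cell markers summed to 152 and 156 CPM in DMEM, 111 to 120 CPM in DMEM + Rux, 162 to 180 CPM in CM and 144 to 153 CPM in CM + Rux, mainly Bst2. Of the 4 that were tested, 1 was called higher in CM than in DMEM, and the largest log2 fold change was 3.42. Of the 12 macrophage markers, Cd14 (log2 2.68 ± 0.24 SE) and Itgam (log2 0.99 ± 0.23 SE) were higher and Csf1r (log2 -0.61 ± 0.10 SE) lower in CM than in DMEM. The part of such cells, or of these marker changes, in the changes of PYHIN genes was not tested.

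The addition of ruxolitinib to CM asked what JAK inhibition does in the presence of tumor medium. Here 6 of the 8 members fell, 2.07- to 3.72-fold, against 2.13% of all tested genes called lower. The median log2 fold change of the 8 was -1.42, against 0.0071 for all genes. In these 6 genes every CM + Rux sample was below every CM sample, as in 9.57% of all tested genes. Of the 12 macrophage markers, Mertk (log2 -1.71 ± 0.25 SE) and Mrc1 (log2 -1.36 ± 0.28 SE) were also lower in CM + Rux than in CM, and both were higher at 2 h than in CM + Rux, by log2 1.25 ± 0.28 and 0.93 ± 0.30 (SE). The neutrophil markers summed to 9.32 to 10.2 CPM in CM and to 5.9 to 7.42 CPM in CM + Rux. The fibroblast markers summed to 26.8 to 30.5 CPM in CM and to 31.8 to 33.9 CPM in CM + Rux. No tested gene of these last lists was called here. Their part in the changes of the members was not tested.

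**Figure D1:**
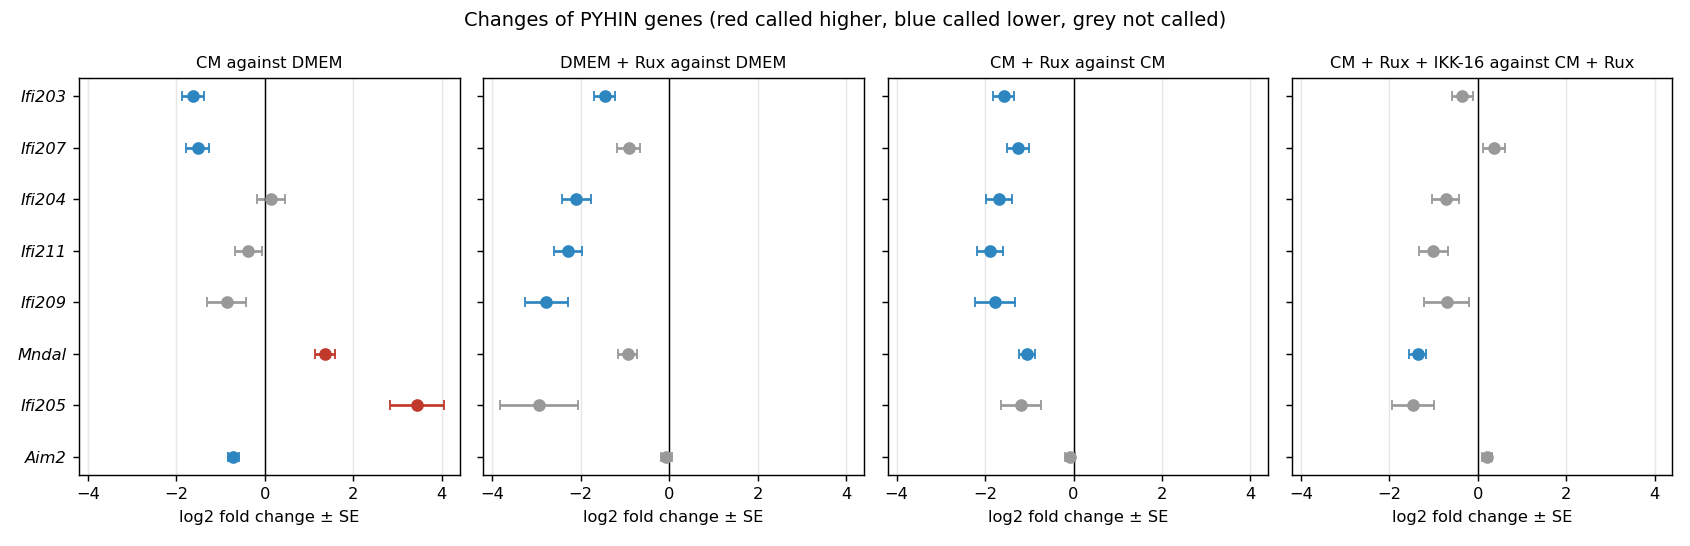
Log2 fold change with its SE (x axis) of the 8 members (rows) in 4 comparisons, with called changes in red (higher) and blue (lower). In CM + Rux against CM 6 members are called lower, whereas in CM against DMEM the calls go both ways.

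Ifi211, a little-studied member, had the largest estimated fall, from 6.50, 13.5 and 7.57 CPM in CM to 1.86, 3.02 and 2.59 CPM in CM + Rux. It was 3.72-fold lower (log2 -1.90 ± 0.30 SE, adjusted p = 0.0019). The falls of Ifi204 and Ifi209 were within the SE of this value, which is itself uncertain for the shared runs given above. Ifi204 went from 39.2, 68.5 and 40.0 CPM to 12, 20.5 and 13.4 CPM, 3.22-fold lower (log2 -1.69 ± 0.30 SE, adjusted p = 0.0043). In both genes replicate 2 was the highest sample of each group. Ifi203 fell to 11.6, 13.2 and 9.36 CPM, 2.99-fold (log2 -1.58 ± 0.24 SE, adjusted p = 0.0014). Ifi207 fell to 25.6, 37.8 and 25.7 CPM, 2.39-fold (log2 -1.26 ± 0.25 SE, adjusted p = 0.0086). Ifi203 and Ifi207 were already lower in CM than in DMEM and fell again with the inhibitor. Mndal, which CM had raised, fell to 43.5, 46.2 and 44.4 CPM, 2.07-fold (log2 -1.05 ± 0.19 SE, adjusted p = 0.0046). Its CM + Rux level was above both DMEM samples.

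The call of Ifi209 was the least stable of the 6. Its samples had 2.95, 6.80 and 2.28 CPM in CM and 1.19, 1.74 and 0.458 CPM in CM + Rux (log2 -1.77 ± 0.45 SE, adjusted p = 0.039). Across the alternative settings, with leaving out samples, this log2 fold change ran from -2.21 to -1.12. The adjusted p became 0.26 without CM replicate 2, 0.14 without CM + Rux replicate 1, 0.12 without CM + Rux replicate 3 and 0.14 in a model of these groups alone. For Ifi207 it became 0.058 without CM + Rux replicate 1. Ifi205 had 3.50, 8.81 and 5.85 CPM in CM + Rux, overlapping with CM (log2 -1.19 ± 0.45 SE, adjusted p = 0.19). Samples with the same replicate number went up and down together here, and with the replicate number as a block Ifi205 was called lower (log2 -1.17, adjusted p = 0.0013). This made 7 of 8 members lower, against 3.56% of all genes with the block. Aim2 stood apart from the other members, with 16.3, 20.7 and 18.4 CPM in CM + Rux (log2 -0.09 ± 0.11 SE, adjusted p = 0.83).

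Ruxolitinib was also given without tumor medium. In DMEM + Rux against DMEM, 4 of the 8 members were called lower, against 0.970% of all tested genes. The median log2 fold change of the 8 was -1.78, against 0.0100 for all genes. In 7 members every DMEM + Rux sample was below both DMEM samples, as in 8.84% of all tested genes.

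Ifi209 had 5.26 and 9.73 CPM in DMEM and 1.01, 1.18 and 1.04 CPM in DMEM + Rux. It was 6.84-fold lower (log2 -2.77 ± 0.48 SE, adjusted p = 0.0072). Ifi211 went from 9.01 and 15.1 CPM to 2.58, 2.86 and 1.91 CPM, 4.88-fold lower (log2 -2.29 ± 0.32 SE, adjusted p = 9.8e-04). In both genes the DMEM samples lay far above the inhibitor samples, which were close to each other. Ifi204 went to 8.77, 10.4 and 12.1 CPM, 4.29-fold lower (log2 -2.10 ± 0.33 SE, adjusted p = 0.0029). Ifi203 went to 33.6, 33.4 and 48.8 CPM, 2.75-fold lower (log2 -1.46 ± 0.25 SE, adjusted p = 0.0056). Each of these calls rested on 2 DMEM samples, of which replicate 2 was the higher. Without DMEM replicate 2 only Ifi211 was called, and the adjusted p of Ifi203 was 0.12, of Ifi204 0.058 and of Ifi209 0.094. In a model of these groups alone the adjusted p of Ifi203 was 0.072.

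The remaining members did not pass. Mndal had 16.3, 15 and 25.2 CPM in DMEM + Rux (log2 -0.94 ± 0.21 SE, adjusted p = 0.055), and was called lower without DMEM + Rux replicate 3, at log2 -1.21. Ifi207 had 93.0, 127 and 104 CPM (log2 -0.92 ± 0.26 SE, adjusted p = 0.24). Ifi205 was near the limit of the counts, with 2, 10 and 4 counts in the DMEM + Rux samples (log2 -2.95 ± 0.88 SE, adjusted p = 0.29). Under DESeq2, Ifi205, Ifi207 and Mndal were called lower too, which made 7. Aim2 had 32.4, 30.2 and 30.1 CPM, within the range of its DMEM samples (log2 -0.06 ± 0.12 SE, adjusted p = 1.0).

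**Figure D2:**
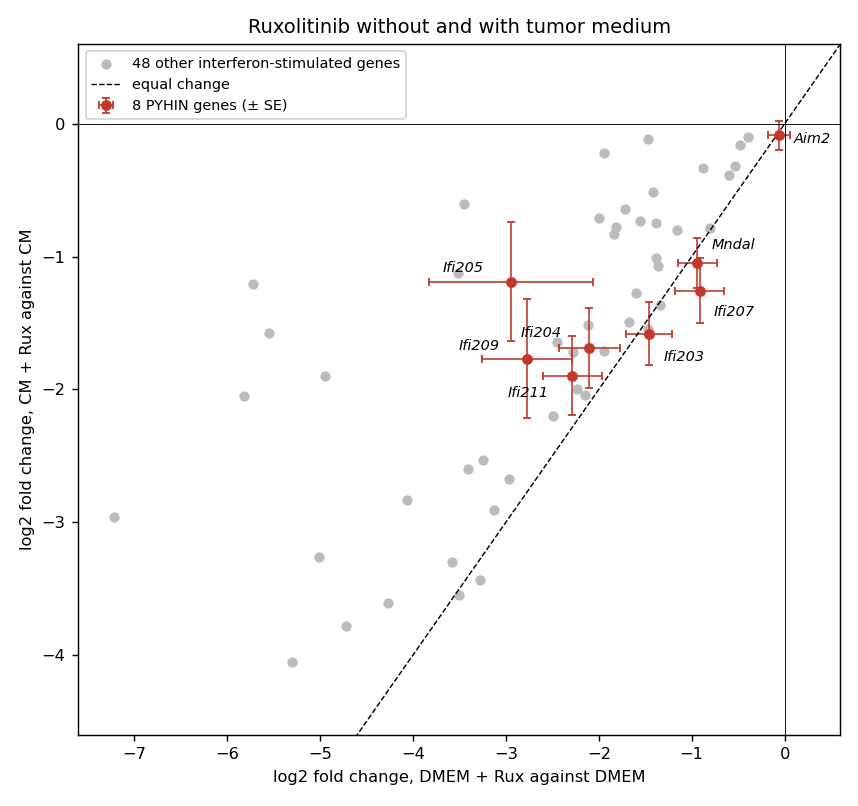
Log2 fold change with ruxolitinib in DMEM (x axis) against that in CM (y axis) for the 8 members (red, with SE) and 48 other interferon-stimulated genes (grey), with a dashed line of equal change. Of the members, 7 lie at -0.92 or lower on the x axis and at -1.05 or lower on the y axis, and Aim2 lies near 0 on both.

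The difference between the effect of ruxolitinib in CM and in DMEM was tested as an interaction. In the edgeR fit without a replicate block none of the 8 members was called, against 0.412% of all tested genes called either way. Of the members 0 had an unadjusted p under 0.05, and the share of all genes at that threshold is not given. DESeq2 also called 0. With the replicate number as a block Ifi205 was called higher (log2 2.05, adjusted p = 0.050), against 3.59% of all genes called either way with the block. The estimates of the difference ran from -0.34 ± 0.36 (log2, SE) for Ifi207 to 1.76 ± 1.01 for Ifi205, and that of Aim2 was -0.03 ± 0.16. Without the block the SE of the difference was 0.28 or more for every member but Aim2.

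With ruxolitinib present in both media, CM + Rux was compared with DMEM + Rux. The same 5 members were called, in the same direction, as without the inhibitor. These comparisons share no samples, but same-numbered samples of their groups deviated together. Of all tested genes 22.3% were called higher and 25.0% lower, so 2 members higher and 3 lower of 8 are near the background. The share of all genes called alike in both comparisons is not given, so the repeat of these calls cannot be read as a trait of the members. RLE scaling shifted every gene by 0.30 (log2) here. Ifi205 rose 36.6-fold (log2 5.19 ± 0.70 SE, adjusted p = 1.7e-05), from the 2, 10 and 4 counts of the DMEM + Rux samples. Mndal was 2.37-fold higher (log2 1.25 ± 0.19 SE, adjusted p = 6.0e-05). Thus both kept a higher level in tumor medium under the inhibitor. Between the same samples the macrophage markers Cd14 (log2 2.96 ± 0.21 SE), Spi1 (log2 0.73) and Itgam (log2 0.70) were higher and Mertk (log2 -2.52 ± 0.25 SE) and Mrc1 (log2 -0.72) lower. Among markers of other cells, Ccr7 (log2 4.4), Zbtb46 (log2 1.05), S100a8 (log2 1.96) and Pdgfrb (log2 0.59) were higher and Ighm (log2 -3.11) and Cd79b (log2 -1.23) lower, and the part of these markers in the changes of the members was not tested. Ifi203 was 3.36-fold lower (log2 -1.75 ± 0.24 SE, adjusted p = 1.8e-05), Ifi207 3.63-fold lower and Aim2 1.67-fold lower. Ifi204 had a log2 fold change of 0.55 ± 0.31 (SE, adjusted p = 0.13) and was called higher with the replicate block (log2 0.54, adjusted p = 0.020), against 22.7% of all genes with the block.

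IKK-16 was added to ask which changes under ruxolitinib depend on the IKK kinases. Mndal was the only member called. It fell from 43.5, 46.2 and 44.4 CPM in CM + Rux to 13, 19.6 and 19.7 CPM with IKK-16, 2.57-fold (log2 -1.36 ± 0.19 SE, adjusted p = 6.1e-04), against 3.66% of all tested genes called lower. The 3 samples with IKK-16 lay below both DMEM samples. Ifi205 had 0.747, 3.94 and 1.98 CPM (log2 -1.47 ± 0.48 SE, adjusted p = 0.058), and was called lower without CM + Rux replicate 1, at log2 -1.76, and without CM + Rux + IKK-16 replicate 2, at log2 -2.17. Ifi211 had 1.21, 1.53 and 0.990 CPM, all below its CM + Rux samples (log2 -1.0 ± 0.33 SE, adjusted p = 0.057), and was called lower without CM + Rux replicate 1, at log2 -1.19.

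Replicate numbers paired the samples in this comparison too. With the replicate block 4 members were called lower, against 5.04% of all genes with the block. These were Mndal, Ifi205 (log2 -1.53, adjusted p = 2.7e-04), Ifi211 (log2 -0.97, adjusted p = 0.0088) and Ifi204 (log2 -0.73, adjusted p = 0.012). Ifi203 stayed at 7.34, 9.78 and 10.1 CPM (adjusted p = 0.38). Ifi207 and Aim2 had positive estimates, log2 0.36 ± 0.25 (SE, adjusted p = 0.36) and 0.21 ± 0.11 (SE, adjusted p = 0.23). Labels give a time only for CM + Rux and CM + Rux 2 h, and not for the IKK-16, CM, DMEM or DMEM + Rux samples. The fibroblast markers summed to 31.8 to 33.9 CPM in CM + Rux and to 16.1 to 28.4 CPM with IKK-16, where Pdgfrb fell (log2 -0.94 ± 0.17 SE, adjusted p = 0.0032). The dendritic cell markers summed to 144 to 153 and to 130 to 143 CPM, where Ccr7 fell (log2 -1.42 ± 0.36 SE, adjusted p = 0.016). Their part in the changes of the members was not tested.

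The CM + Rux 2 h samples were set against CM + Rux. Here 5 members were called higher, against 12.6% of all tested genes. Ifi203 had 32.4 and 43.3 CPM at 2 h, 3.28-fold above its CM + Rux level (log2 1.71 ± 0.26 SE, adjusted p = 1.9e-04) and overlapping with CM. Mndal had 72 and 94.0 CPM, 1.85-fold above CM + Rux (log2 0.89 ± 0.21 SE, adjusted p = 0.0040). Ifi204 with 25.7 and 31.3 CPM and Ifi211 with 4.77 and 5.55 CPM lay between CM and CM + Rux, with no overlap on either side. Ifi207 had 52.1 and 54.7 CPM, above CM + Rux and overlapping with CM. Ifi209 did not follow, with 0.966 and 0.817 CPM (log2 -0.40 ± 0.58 SE, adjusted p = 0.62). The sum of B cell markers was 71.4 and 55.6 CPM in these samples, above that of both CM and CM + Rux, and Ighm was higher than in CM + Rux (log2 2.29 ± 0.25 SE). The dendritic cell marker Zbtb46 (log2 2.41 ± 0.32 SE) and the macrophage markers Mertk (log2 1.25) and Mrc1 (log2 0.93) were also higher, and the neutrophil marker S100a8 (log2 -1.25) and the fibroblast marker Pdgfrb (log2 -0.86) lower. Their part in the changes of the members was not tested. Of the 5 calls, that of Ifi203 held without any single sample. Without CM + Rux 2 h replicate 3 it was the only call left, and 2 members were called without CM + Rux 2 h replicate 2, 2 without CM + Rux replicate 1 and 3 without CM + Rux replicate 3.

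Across the 6 groups the orders of the members differed. Aim2 was in the order DMEM, DMEM + Rux, CM + Rux 2 h, CM + Rux + IKK-16, CM, CM + Rux. Its means ran from 32.3 to 18.5 CPM, and the DMEM groups did not overlap with the other groups, among which neighbours overlapped. The order of Mndal was CM, CM + Rux 2 h, CM + Rux, DMEM, DMEM + Rux, CM + Rux + IKK-16. Its means ran from 92.6 to 17.5 CPM, with overlap between the first pair and between the last pair of groups. Ifi204 and Ifi211 had their higher levels in CM and DMEM, an intermediate level at 2 h and lower levels in the other groups.

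Other annotated PYHIN genes of the cluster were looked up as well. Ifi202b, whose protein lacks the pyrin domain and is known to inhibit AIM2, was abundant. It had 52.4 and 90.2 CPM in DMEM, 57.0, 131 and 63.4 CPM in CM and 28.8, 57.0 and 20.7 CPM in CM + Rux. It was not called in any comparison, with a log2 fold change of -1.23 ± 0.36 (SE, adjusted p = 0.077) for ruxolitinib in CM, with CM + Rux replicate 2 level with the lowest CM sample. The pseudogene Ifi203-ps was 4.03-fold lower in CM than in DMEM (log2 -2.01 ± 0.34 SE, adjusted p = 1.7e-04). Ifi214 had low levels, 33 and 35 counts in DMEM and 1, 1 and 2 counts in DMEM + Rux. It was called lower with ruxolitinib in DMEM (adjusted p = 0.0011) and in CM (log2 -2.23 ± 0.56 SE, adjusted p = 0.035). Ifi208 was not tested, with 24 to 28 counts in the DMEM samples and at most 5 in every other sample. Ifi206 and Ifi213, also not tested, had at most 5 counts in a sample.

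Within 200 kb of the members the annotation held 44 genes, of which 22 had 0 counts in all samples and 12 were tested. The 12 were the 8 members, Ifi202b, Ifi203-ps, Ifi214 and Gm18445. Gm18445 lies between Ifi202b and Ifi205, at chr1:173986926-174001972 on the minus strand. It had 4 to 6 counts in the DMEM samples and a mean of 16.1 ± 2.76 CPM in CM (SD, n = 3). It was higher in CM than in DMEM (log2 6.52 ± 0.50 SE, adjusted p = 1.2e-07) and lower with IKK-16 (log2 -1.88 ± 0.28 SE, adjusted p = 7.4e-04). Ruxolitinib in CM gave a log2 fold change of -0.39 ± 0.26 (SE, adjusted p = 0.55). In CM against DMEM, Gm18445 and its neighbour Ifi205 thus both rose, whereas Ifi203, on the other side of Ifi202b, fell.

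**Figure D3:**
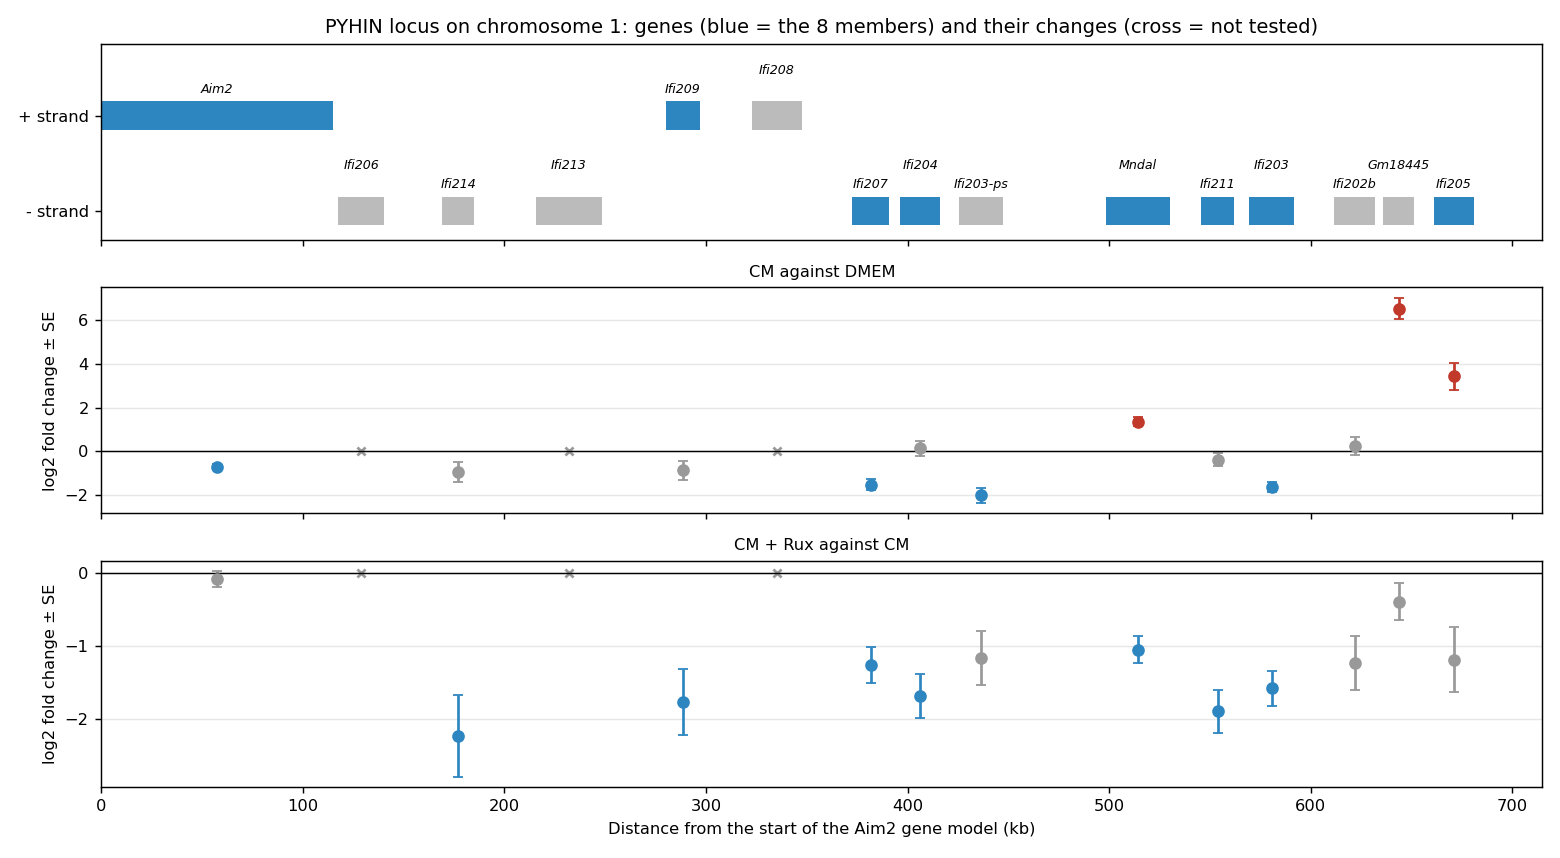
Top, positions of PYHIN genes and Gm18445 by strand as distance in kilobases from the start of Aim2. Below, log2 fold change with SE of each gene at its position in CM against DMEM and in CM + Rux against CM (red higher, blue lower, grey not called, cross not tested). Rises in CM are at Mndal, Gm18445 and Ifi205, and with ruxolitinib the members other than Aim2 lie between -1.05 and -1.90.

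Likeness of pattern was described by Pearson's r of log2(CPM + 0.5) over the 16 samples, which share 6 groups and replicate numbers. Among members, Ifi204 and Ifi211 were most alike (r = 0.950), then Ifi203 and Ifi207 (r = 0.908). Ifi205 and Mndal had r = 0.848, and Ifi205 and Aim2 ran opposite (r = -0.670). Ifi211 is also the gene that shares most 100-base runs with Ifi204, and the part of these shared runs in the likeness was not tested. Of all tested genes outside the list, Ifi44 (r = 0.957), Oas1a (r = 0.954), Oas1g (r = 0.951), Oas3 (r = 0.939) and Sp100 (r = 0.938) were most like the mean of the 8 members, and all of these are known interferon-stimulated genes. By member, the nearest gene was Ifi203-ps for Ifi203 (r = 0.966), Rnf114 for Ifi204 (r = 0.970), Gm5431 for Ifi207 (r = 0.977), Cmpk2 for Ifi209 (r = 0.954) and Oas1a for Ifi211 (r = 0.969). For Ifi205 it was Ccnd2 (r = 0.970), for Mndal Tmem243 (r = 0.921) and for Aim2 Slc25a24 (r = 0.975).

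Other interferon-stimulated genes were followed for comparison. Of 48 interferon-stimulated genes, 31 fell in CM + Rux against CM, with a median log2 fold change of -1.51, where 2.13% of all tested genes fell. In DMEM + Rux against DMEM 42 fell, with a median of -2.13, where 0.970% of all tested genes fell. The largest falls in CM were those of Ifit3 (log2 -4.06 ± 0.49 SE), Mx2 (log2 -3.78 ± 0.49 SE) and Ifit2 (log2 -3.61 ± 0.44 SE), which encode antiviral effectors. In CM against DMEM, 15 of the 48 fell and 5 rose, where 24.1% of all tested genes fell and 20.9% rose, with a median of -0.35, and Iigp1 (log2 -3.42 ± 0.57 SE), Ifit3 and Ifit2 fell most. With IKK-16, 4 fell and 1 rose, against 3.66% and 4.07% of all tested genes.

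Among 18 tested genes of interferon receptors and their signalling, 5 fell with ruxolitinib in CM, against 2.13% of all tested genes. Irf9 fell from a mean of 67.7 to 24.7 CPM (log2 -1.46 ± 0.13 SE, adjusted p = 4.1e-05). Stat2 fell by 0.85 on the log2 scale, and Irf8 and the interferon-induced inhibitor Usp18 also fell. In CM against DMEM, 9 of the 18 rose and 3 fell, against 20.9% and 24.1% of all tested genes. The inhibitors of JAK signalling Socs3 (log2 7.54 ± 0.60 SE) and Socs1 (log2 4.32 ± 0.18 SE) and the kinase Jak2 (log2 3.59 ± 0.15 SE) rose most, Jak1 rose by log2 0.69 ± 0.09 (SE), and Stat2 and Irf9 were not called. Transcripts of Ifnb1, the interferon beta gene, were at most 7 counts in a sample and were not tested.

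An inflammasome list held the adaptor, caspases and products of the AIM2 pathway together with other sensors (Nlrp3, Nlrc4, Mefv, Zbp1), GBP genes and related genes. Of its 15 tested genes, 11 rose in CM against DMEM, against 20.9% of all tested genes. Il1b, the cytokine that caspase-1 matures, rose from a mean of 122 to 7080 CPM (log2 5.86 ± 0.50 SE, adjusted p = 3.3e-07). Pycard, which encodes ASC, rose from 21.0 to 47.6 CPM (log2 1.18 ± 0.17 SE), and Gsdmd, the pore-forming substrate of caspase-1, by log2 0.61 ± 0.07 (SE). Gbp5 (log2 3.95 ± 0.41 SE) and Mefv (log2 3.57 ± 0.39 SE), the pyrin gene, were also among the largest rises. Casp1 was not called (log2 -0.33 ± 0.15 SE, adjusted p = 0.060). Ruxolitinib in CM lowered 1 of the 15, against 2.13% of all tested genes, namely Zbp1 (log2 -2.20 ± 0.26 SE), a sensor of Z-form nucleic acids. Neither Aim2, Pycard, Casp1 nor Il1b was called with ruxolitinib in CM. IKK-16 lowered 4 of the 15, namely Gbp5, Il18, Casp4 and Pycard, against 3.66% of all tested genes.

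In the list of 18 tested genes that lead from DNA to interferon, 5 fell with ruxolitinib in CM, against 2.13% of all tested genes. Beside Zbp1 these were Irf7 (log2 -1.41 ± 0.23 SE, adjusted p = 0.0025), Tmem173, the STING gene (log2 -0.78 ± 0.14 SE, adjusted p = 0.0041), Ifi35 and Samhd1. Cgas, which makes the messenger that activates STING, had a mean of 13 CPM in CM and 10.3 CPM in CM + Rux (log2 -0.34 ± 0.10 SE, adjusted p = 0.090), and was lower in DMEM + Rux than in DMEM (log2 -0.86 ± 0.11 SE, adjusted p = 6.7e-04). In CM against DMEM, 4 of the 18 fell and 1 rose, against 24.1% and 20.9% of all tested genes. Tlr9, the endosomal DNA receptor, had the largest change (log2 -2.77 ± 0.24 SE), Ikbke rose (log2 1.12 ± 0.19 SE) and Samhd1 fell (log2 -1.11 ± 0.12 SE).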

How the data were processed

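The authors trimmed reads with Trimmomatic 0.33, aligned them to GRCm38 with HISAT2 2.1.0 and counted strand-specific fragments per gene with featureCounts 1.6.2. The deposited table holds raw counts, in which fragments with several alignments or several genes are not counted. Symbols came from a GENCODE table (55141 identifiers matched) in place of Ensembl 100. The 12372 genes that exceeded 1 CPM (counts scaled to library size) in 2 or more samples were scaled by RLE and fitted in a model of all 6 groups by the quasi-likelihood test of edgeR 4.0.16 (limma 3.58.1, R 4.3.3), with Benjamini-Hochberg adjustment over all tested genes, 2-sided. Self-tests used simulated data. DESeq2 1.42.0, Python 3.11.15, matplotlib 3.10.9, numpy 2.4.6 and pandas 2.3.3 were also used. CPM uses RLE-scaled totals.

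The members and all lists were chosen with earlier results of these data known. Named genes were the members, other PYHIN genes, the 3 largest changes of each list in CM against DMEM and in CM + Rux against CM, key pathway genes, and the nearest genes by pattern.

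The study states triplicates and repeated experiments, but the labels do not tie samples to cultures or animals, so p-values measure the spread between these samples, which may be technical. No pair of replicates agreed within counting noise. Same-numbered samples deviated together. In the 3 pairs of each comparison, r was 0.528 to 0.717 for CM + Rux with CM, 0.163 to 0.368 for CM + Rux with DMEM + Rux and 0.586 to 0.703 for IKK-16 with CM + Rux. Every same-numbered pair among the 4 groups of the interaction exceeded 0.1. There blocked values are given beside results they change. Alternatives were TMM scaling, no filter, the replicate block, DESeq2, a model of the compared groups only, no fold threshold, and leaving out each sample. Some items of the lists are not reported here.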

Additional observations from a re-analysis of the deposited data

How the results depend on the processing

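Across alternatives, 616 of 688 member values kept direction and side of the threshold, 21 lost and 31 gained a call, and 20 changed sign, none of them a called change. With no filter, the replicate block or DESeq2, 7 members were lower in DMEM + Rux against DMEM, and 1 to 5 were on leaving out 1 sample, the lowest without DMEM replicate 2. With IKK-16, 4 were lower with no filter, 4 with the replicate block and 2 with DESeq2, and 1 to 3 on leaving out 1 sample. For CM against DMEM 3 to 5 were lower, and for 2 h 1 to 5 were higher, on leaving out 1 sample. In the interaction, 1 member was higher with the replicate block (Ifi205, log2 2.05, adjusted p = 0.050). CM against DMEM, DMEM + Rux against DMEM and the 2 h comparison hold only 2 pairs of the same replicate number (r 0.220 to 0.413). There the block also called Ifi209 in CM against DMEM (log2 -0.71) and Ifi205, Ifi207 and Mndal in DMEM + Rux against DMEM. All 16 samples correlated best with a sample of their own number, a hint from the data and not from the design. Over all genes the block moved calls in CM + Rux against CM from 149 higher and 263 lower to 305 and 440, and in the interaction from 29 and 22 to 247 and 197. It changed no other member's call beyond those named here and above.

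Sign changes were in values not called. Under TMM scaling, Ifi211 in CM + Rux against DMEM + Rux was log2 -0.0014, and on leaving out 1 sample it ran from -0.17 to 0.21. In CM against DMEM, Ifi204 ran from -0.25 to 0.65 and Ifi211 from -0.77 to 0.043. In the interaction, Ifi203 ran from -0.57 to 0.23, Ifi204 from -0.10 to 0.80, Ifi211 from -0.027 to 0.79, Mndal from -0.30 to 0.16 and Aim2 from -0.12 to 0.060. Ifi209 ran from -0.30 to 0.43 in CM + Rux against DMEM + Rux and from -0.69 to 0.036 at 2 h. The cause was not tested. Low counts limit Ifi205 in DMEM, Ifi209 and Ifi214, and DMEM has 2 samples.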
